A study of Mus musculus with 12 samples.

Results

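The miRNAs described here are the mature miRNAs of imprinted loci outside the large Dlk1-Dio3 and Sfmbt2 clusters. They were taken by name as 9 rows of the 1978 rows counted: mmu-miR-335-5p and mmu-miR-335-3p of Mest, mmu-miR-483-5p and mmu-miR-483-3p of Igf2, mmu-miR-675-5p and mmu-miR-675-3p of H19, and mmu-miR-296-5p, mmu-miR-296-3p and mmu-miR-298-5p of the Gnas locus. The prefix, which marks mouse miRNAs, is left out from here on. For comparison, 109 rows belonged to the Dlk1-Dio3 cluster and 80 rows to the Sfmbt2 families. The rule goes by locus and name and uses no measured value, but it was drawn up with earlier results of these data known.

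Genomic imprinting silences a gene on the chromosome inherited from one parent, so that only the other copy is transcribed. Several imprinted genes carry miRNA hairpins, and the mature miRNAs cut from a hairpin's 5′ side (5p arm) and 3′ side (3p arm) guide the silencing of mRNAs that pair with their seed, bases 2 to 8. In mouse, Mest, Igf2 and the miRNAs of the Gnas locus are expressed from the paternal copy, and H19 from the maternal copy. Imprinted genes are best known in the placenta and in the growth of the fetus, where Igf2 promotes growth and the H19 product miR-675 restrains the growth of the mouse placenta.

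Small RNA was sequenced in 4 groups of mouse stem cells. The paused ESC are embryonic stem cells of the E14 line in which the kinase mTOR was inhibited, a treatment that puts cells into a reversible dormancy like that of diapause embryos, and the control ESC are E14 cells labelled WT. The paused TSC and control TSC (also labelled WT) are the same pair of states in trophoblast stem cells, the stem cells of the placental lineage. E14 is a single line, no line name is given for the TSC, and the inhibitor, its dose and its duration are not stated in the labels. The question behind the design is how miRNA levels change on entry into the paused state.

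The file of replicate 3 was identical to that of replicate 2 in each group, so the pair was counted as 1 sample, which leaves 8 libraries, n = 2 per group. Nothing in the labels says that these are separate cultures, and p-values therefore measure only the spread between these samples, which may be technical. In the main edgeR fit that spread was pooled over all tested miRNAs. A miRNA's own spread between libraries did not enter its p-value there. Total counts were 73574 and 61749 in paused ESC, 19266 and 13607 in control ESC, 23652 and 30487 in paused TSC, and 115492 and 18725 in control TSC. The deepest library, control TSC replicate 1, also had the lowest scaling factor (0.678, against 0.887 to 1.15 in the others). The trophoblast list of 13 rows (the miR-322 and miR-503 cluster and its neighbours) summed to 880 to 1496 CPM (counts divided by the TMM-scaled library size, where TMM is edgeR's trimmed mean of M-values) in ESC and 57270 to 151300 CPM in TSC, while the embryonic list of 22 rows (miR-290 to miR-295, miR-302 and miR-367) held 62.5% to 65.2% of the counts in ESC and 45.7% to 56.0% in TSC. Of lists for other cell types, the blood list of 9 rows summed to 4717 to 9809 CPM in ESC and 0 to 194.2 CPM in TSC (miR-150-5p at 740 counts over all libraries, miR-142a-5p at 216 and miR-142a-3p at 97, with miR-223 and miR-451a at 0), the fibroblast list of 13 rows to 153 to 1090 CPM (miR-143-3p at 187 counts and miR-145a-5p at 62, with miR-199a and miR-218 at 0), the endoderm and liver list of 9 rows to 61.2 to 260 CPM with miR-122 and miR-375 at 0, the muscle list of 7 rows to 0 to 116 CPM, and the neural list of 4 rows to 0. Of rows whose mature sequence lies at several loci in RefSeq, 51 of 59 had 0 counts in all libraries, against 1084 of 1620 at a single locus. miR-199a, miR-218-5p, miR-194-5p and miR-9 are among those at several loci, so their 0 says nothing of the cell types they mark. Some rows were not found by name in RefSeq, among them miR-124, miR-1a-3p and miR-133a. Their 0 may carry the same limit. Each of the 9 imprinted miRNAs lies at 1 locus.

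The 5 mature sequences below are those that could be tested, from RefSeq (GRCm38.p6), written 5′ to 3′ with the seed in capitals.
miR-335-5p: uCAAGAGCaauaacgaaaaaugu
miR-483-3p: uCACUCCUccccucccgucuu
miR-296-5p: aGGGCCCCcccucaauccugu
miR-296-3p: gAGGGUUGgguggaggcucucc
miR-298-5p: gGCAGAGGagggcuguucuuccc
No 2 of these seeds are the same, and 0 other mature mouse miRNAs of the RefSeq table share the seed of any of the 9 listed miRNAs. They also differ in base composition: G and C make up 30.4% of miR-335-5p, against 61.9% to 68.2% of the other 4.

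The hairpins lie on 3 chromosomes (GRCm38, GENCODE M21). Mir335 (chr6:30741299-30741396, plus strand) lies in an intron of Mest on the same strand, and Mir483 (chr7:142654924-142654996, minus strand) in an intron of Igf2 on the same strand. Mir675 (chr7:142577064-142577147, minus strand) lies within exon 1 of 2 H19 transcripts, exon 2 of another and an intron of a further one, 77776 bases from Mir483 in the same imprinted domain. Mir296 (chr2:174267047-174267125) and Mir298 (chr2:174267504-174267585) lie on the minus strand 378 bases apart, in no annotated host gene, 13651 bases beyond the 3′ end of Nespas, an antisense transcript of the Gnas locus on the same strand. Their hairpins are shown because the results below turn on their relative counts, with the mature 5p and 3p arms in capitals.
Mir296: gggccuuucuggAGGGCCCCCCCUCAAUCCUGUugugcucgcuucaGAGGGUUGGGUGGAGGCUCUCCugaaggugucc
Mir298: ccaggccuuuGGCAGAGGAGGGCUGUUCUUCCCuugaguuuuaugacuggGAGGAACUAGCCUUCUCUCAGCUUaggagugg

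The imprinted miRNAs were minor species in ESC and more abundant in TSC. Together they held 0.319% and 0.290% of the counts in paused ESC, 0.332% and 0.345% in control ESC, 1.70% and 1.56% in paused TSC, and 0.669% and 0.919% in control TSC. All 4 TSC libraries lay above all 4 ESC libraries, and both paused TSC libraries above both control TSC libraries. The Gnas locus gave the most of these counts in every library but paused TSC replicate 2, where it had 209 counts beside 210 for Mest. It held a mean of 0.200% ± 0.026 of all counts in paused ESC, 0.181% ± 0.014 in control ESC, 0.804% ± 0.167 in paused TSC and 0.491% ± 0.136 in control TSC (SD, n = 2 each). Mest gave 0.105% ± 0.005, 0.158% ± 0.005, 0.647% ± 0.060 and 0.206% ± 0.011 in the same order of groups. Igf2 gave 0 in both ESC groups, 0.176% ± 0.010 in paused TSC and 0.0969% ± 0.029 in control TSC. In bulk samples such as these, fewer cells of a type and less RNA per cell cannot be told apart.

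**Figure D1:**
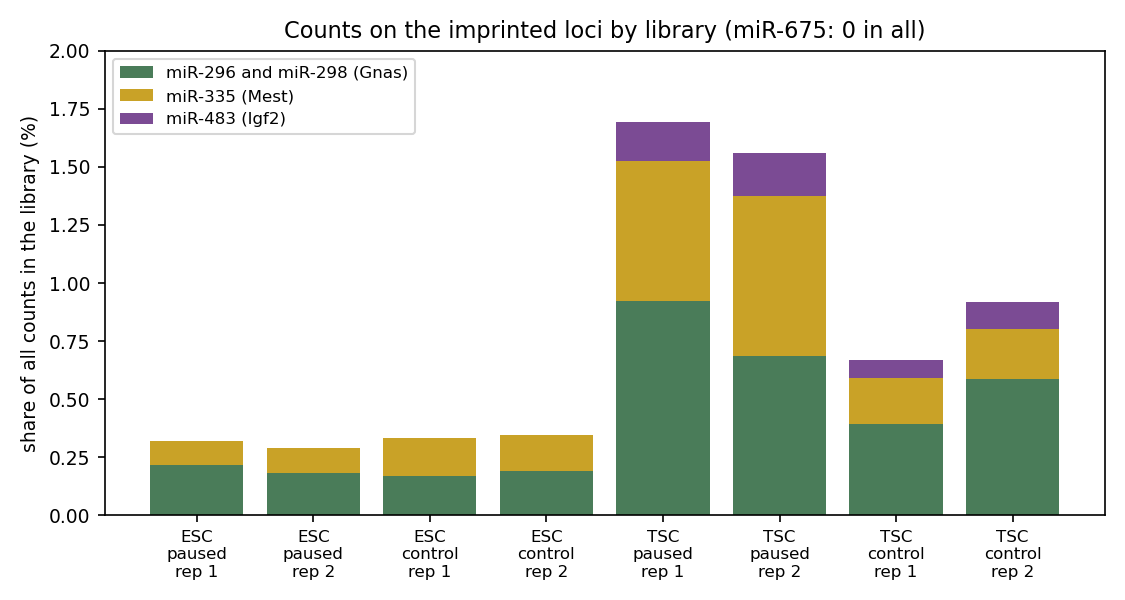
Stacked bars give the percentage of each library's counts taken by the Gnas, Mest and Igf2 miRNAs in the 8 libraries. The 4 TSC bars, at 0.669% to 1.70%, stand above the 4 ESC bars, at 0.290% to 0.345%, and the Igf2 segment is present in TSC libraries but not in ESC libraries.

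The H19 miRNAs were not seen. Both miR-675-5p and miR-675-3p had 0 counts in all 8 libraries. A count of 0 allows up to 3 counts, a limit worth 22.2 CPM without TMM scaling in paused ESC, 91.3 in control ESC, 55.4 in paused TSC and 22.4 in control TSC over the pooled libraries of each group. Levels below those limits were not detectable at this depth, and such limits cover counting error only.

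The Igf2 miRNAs were detected in TSC alone among the 2 cell types. miR-483-3p, for which the pro-apoptotic gene BBC3 is a reported human target, had 0 counts in all 4 ESC libraries. It stood at 1471 and 1565 CPM in paused TSC (35 and 51 counts) and at 1062 and 1346 CPM in control TSC (82 and 22 counts). Both paused TSC libraries lay above both control TSC libraries, with means of 1518 ± 66.8 and 1204 ± 201 CPM (SD, n = 2 each). The log2 difference of 0.39 ± 0.37 (SE) did not pass the edgeR test (adjusted p = 0.546). The ESC groups were set at their limit of 3 counts. On that setting miR-483-3p was 72.4-fold lower in paused ESC than in paused TSC and 13.7-fold lower in control ESC than in control TSC. With the observed count of 0 in place of 3, the lower 95% counting bounds on the fold were 57.7 and 10.95. miR-483-3p entered the tests through its TSC levels alone, so that a cell type difference was built into its testing. The partner arm miR-483-5p had 0 counts in the ESC libraries, 5 and 5 counts in paused TSC, and 6 and 0 counts in control TSC. The pooled ratio of miR-483-5p, paused over control TSC, was 2.77 with a 95% counting interval of 0.911 to 9.26. With ESC set at 3 counts, miR-483-5p in paused cells was 8.42-fold lower in ESC than in TSC. Its lower 95% counting bound with the observed count of 0 was 5.66. In control cells no fold could be given at this depth. The 3p arm held 87.5% and 91.1% of the hairpin's counts in paused TSC, against 93.2% and 100.0% in control TSC. Those shares did not overlap, but their 95% exact (Clopper-Pearson) intervals, 73.2% to 95.8% and 80.4% to 97.0% in paused TSC and 85.7% to 97.5% and 84.6% to 100.0% in control TSC, did, and an exact two-sided permutation test gave p = 0.33, the smallest it can give for 2 libraries against 2.

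The Mest miRNA miR-335-5p was called higher in paused TSC. miR-335-5p, known in human breast cancer as a suppressor of metastasis, stood at 900.0 and 1038 CPM in paused ESC (71 and 66 counts), 1390 and 1364 CPM in control ESC (30 and 21 counts), 5924 and 6291 CPM in paused TSC (141 and 205 counts), and 2849 and 2448 CPM in control TSC (220 and 40 counts). Paused TSC were the highest, then control TSC, control ESC and paused ESC, and no neighbours in that order overlapped. Among all rows it ranked 27 in both paused TSC libraries, against 45 and 49 in control TSC, and 57 to 71 in ESC.

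In TSC the level averaged 6108 ± 259 CPM in paused cells and 2648 ± 284 CPM in control cells (SD, n = 2 each), a log2 difference of 1.19 ± 0.35 (edgeR, adjusted p = 0.0101). It was the only one of the 5 tested imprinted miRNAs called in this comparison, in which 18.9% of all tested miRNAs were called, 1.94% higher and 17% lower. The call ended without paused TSC replicate 2 (1.15, adjusted p = 0.0918, edgeR) and when the low-count filter was set at 10 CPM (0.82, adjusted p = 0.212), as well as with the replicate block (1.20, adjusted p = 0.103). The trophoblast list was lower in the same paused libraries, at 57270 and 71500 CPM in paused TSC and 151300 and 129200 CPM in control TSC, and so was the fibroblast list, at 462 and 153 CPM against 1049 and 612 CPM. The part of either in the result was not tested. In ESC the means were 969 ± 97.5 CPM in paused cells and 1377 ± 18.1 CPM in control cells (SD, n = 2 each), and the log2 difference of -0.51 ± 0.40 did not pass the test (edgeR, adjusted p = 0.366).

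The pause effect on miR-335-5p differed between the cell types. The ESC effect minus the TSC effect was -1.70 ± 0.54 on the log2 scale (edgeR, adjusted p = 0.0113), in a comparison that called 26.2% of all tested miRNAs, 14.6% with a higher effect in ESC and 11.7% with a lower one. That call ended without paused ESC replicate 1 (-1.60, adjusted p = 0.0631) and without control ESC replicate 1 (-1.69, adjusted p = 0.0598), and it was kept in 11 of 16 alternatives.
The 3p arm was scarce throughout. miR-335-3p had 4 and 1 counts in paused ESC, 1 and 0 in control ESC, 2 and 5 in paused TSC, and 9 and 0 in control TSC. It did not reach the count filter, and its pooled ratio of paused over control was 1.30 in ESC (95% counting interval 0.145 to 61.4) and 1.29 in TSC (0.409 to 3.89). The 5p arm held 94.7% to 100.0% of the counts of this hairpin in every library.

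**Figure D2:**
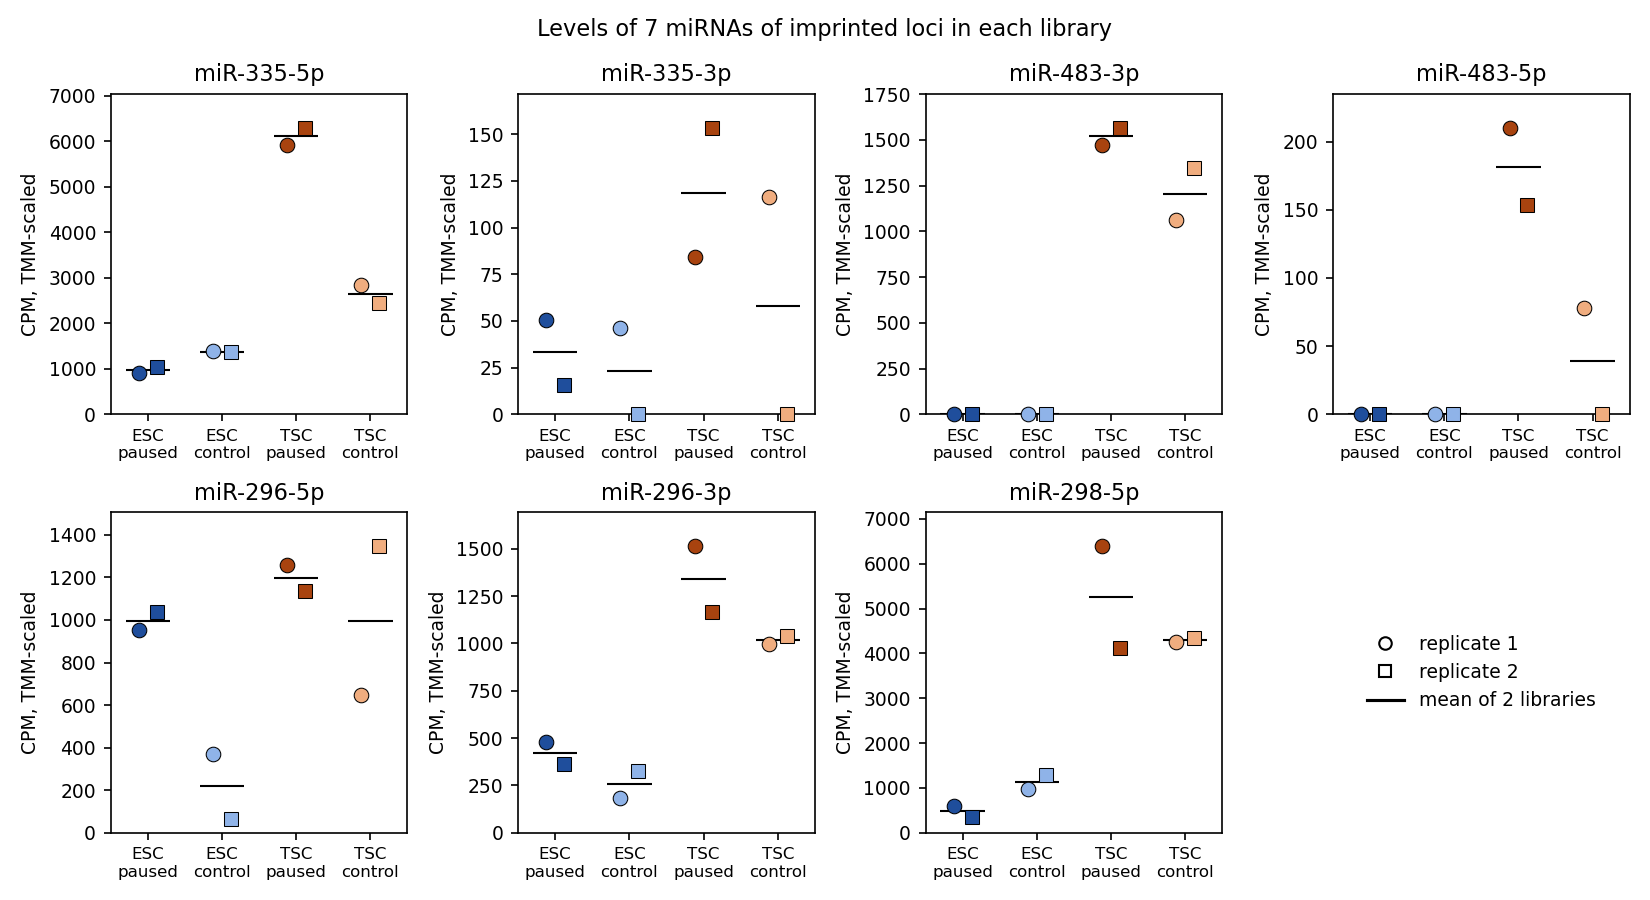
Points give the TMM-scaled level (CPM, linear axes that start at 0 and differ between panels) of 7 imprinted miRNAs in each library, and lines the mean of 2 libraries per group. miR-335-5p is highest in paused TSC (5924 and 6291 CPM), miR-483-3p is at 0 in ESC, and in ESC miR-296-5p is higher and miR-298-5p lower in paused than in control libraries.

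In ESC both called imprinted miRNAs came from the Gnas locus: miR-296-5p was higher in paused cells and miR-298-5p lower, while miR-296-3p did not pass the test. miR-296-5p, whose hairpin has been linked in mouse ESC to targeting of the pluripotency gene Nanog, stood at 951 and 1038 CPM in paused ESC (75 and 66 counts), against 371 and 65.0 CPM in control ESC (8 counts and 1 count). In TSC it stood at 1260 and 1135 CPM in paused cells (30 and 37 counts) and at 648 and 1346 CPM in control cells (50 and 22 counts). Control ESC were the lowest of the groups with no overlap, while paused ESC lay within the spread of control TSC. It ranked 67 among all rows in both paused ESC libraries, against 136 and 238 in control ESC.

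The mean of miR-296-5p was 994 ± 61.6 CPM in paused ESC and 217.8 ± 216 CPM in control ESC (SD, n = 2 each), a log2 difference of 2.04 ± 0.54 (edgeR, adjusted p = 0.00108). The pooled counts of 141 in paused ESC and 9 in control ESC gave a scaled ratio of 4.07 with a 95% counting interval of 2.08 to 9.08. The single count in control ESC replicate 2 bears on this value: without that library the difference was 1.47 (edgeR, adjusted p = 0.109), and without control ESC replicate 1 it was 3.88 (adjusted p = 0.00222). In TSC the means were 1198 ± 88.5 CPM in paused cells and 997 ± 494 CPM in control cells, and the difference of 0.42 ± 0.41 did not pass the test (edgeR, adjusted p = 0.563). The ESC effect minus the TSC effect was 1.62 ± 0.69, which missed the threshold (edgeR, adjusted p = 0.0610).

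miR-298-5p, which has been reported to target Bace1 in mouse, fell in paused ESC. It stood at 596 and 362 CPM in paused ESC (47 and 23 counts) and at 973 and 1299 CPM in control ESC (21 and 20 counts), and the groups did not overlap. In TSC it was among the more abundant miRNAs, at 6386 and 4112 CPM in paused cells (152 and 134 counts) and 4260 and 4344 CPM in control cells (329 and 71 counts), with the paused libraries on either side of the controls.

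The mean was 479 ± 166 CPM in paused ESC and 1136 ± 231 CPM in control ESC, a log2 difference of -1.21 ± 0.44 (edgeR, adjusted p = 0.0248). With miR-296-5p, that made 2 called of the 4 tested imprinted miRNAs with counts in ESC. Of all tested miRNAs 27.7% were called, 8.25% higher and 19.4% lower. miR-483-3p had 0 counts in ESC and could not be called in this comparison. The miR-298-5p call was weak. It ended with DESeq2 (-1.08, adjusted p = 0.0903), without paused ESC replicate 2 (-0.91, adjusted p = 0.238), without control ESC replicate 1 (-1.42, adjusted p = 0.0648) and without control ESC replicate 2 (-0.93, adjusted p = 0.237), and it was kept in 9 of 17 alternatives, while all 17 gave a lower level in paused ESC. The blood list summed to 5349 and 4717 CPM in the paused libraries and 7968 and 9809 CPM in control ESC, but its members moved apart: miR-142a-5p (-4.25) and miR-142a-3p (-3.86) were called lower and miR-150-5p (1.20, adjusted p = 0.00811) higher. Their part in the result was not tested. In TSC the means were 5249 ± 1608 CPM in paused cells and 4302 ± 59.4 CPM in control cells, a log2 difference of 0.28 ± 0.35 (edgeR, adjusted p = 0.642). The ESC effect minus the TSC effect was -1.49 ± 0.56 (edgeR, adjusted p = 0.0322), a call kept in 8 of 16 alternatives.

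miR-296-3p, from the same hairpin as miR-296-5p, stood at 482 and 362 CPM in paused ESC (38 and 23 counts), against 185 and 325 CPM in control ESC (4 and 5 counts). It stood at 1513 and 1166 CPM in paused TSC (36 and 38 counts), against 997 and 1040 CPM in control TSC (77 and 17 counts). Paused libraries lay above control libraries in both cell types. The log2 differences of 0.78 ± 0.57 in ESC and 0.39 ± 0.38 in TSC did not pass the test (edgeR, adjusted p = 0.322 and 0.563).

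**Figure D3:**
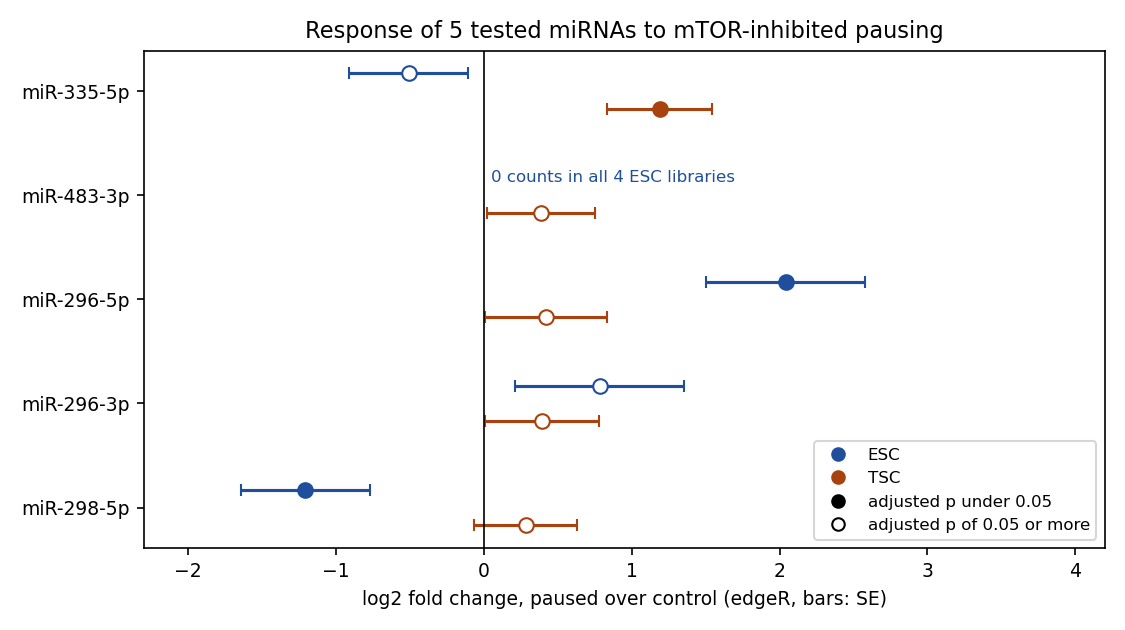
Points give the edgeR log2 fold change, paused over control, of the 5 tested imprinted miRNAs in ESC and TSC, with bars of 1 SE and filled points at an adjusted p under 0.05. miR-483-3p has no ESC point, since it had 0 counts in ESC. In ESC miR-296-5p (2.04) and miR-298-5p (-1.21) are filled on opposite sides of 0, and in TSC miR-335-5p (1.19) is the only filled point.

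A share of one miRNA in the sum of 2 from the same library does not depend on how libraries are scaled, though it does not tell which of them moved. It was computed with the fold changes above in view and is no independent support for them. Of the counts of miR-296-5p plus miR-298-5p, miR-296-5p took 61.5% and 74.2% in paused ESC (95% exact intervals 52.2% to 70.1% and 63.8% to 82.9%). In control ESC it took 27.6% and 4.76% (12.7% to 47.2% and 0.120% to 23.8%). The paused and control intervals did not overlap. In TSC the shares were 16.5% and 21.6% in paused cells and 13.2% and 23.7% in control cells, and these did overlap. The mean difference, paused minus control, was 51.6 percentage points in ESC (67.8% ± 8.97 against 16.2% ± 16.1, SD, n = 2 each; exact two-sided permutation p = 0.33, the smallest possible) and 0.636 points in TSC (19.1% ± 3.64 against 18.4% ± 7.40; exact permutation p = 1).

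The 3p arm of Mir296 showed the same order against miR-298-5p. miR-296-3p took 44.7% and 50.0% of the sum with miR-298-5p in paused ESC, against 16.0% and 20.0% in control ESC, and 19.1% and 22.1% in paused TSC, against 18.97% and 19.3% in control TSC. The ESC difference was 29.4 points (exact permutation p = 0.33, the smallest possible) and the TSC difference 1.48 points (exact permutation p = 0.67). The 6 libraries of control ESC and TSC ran from 4.76% to 27.6% on the first share and from 16.0% to 22.1% on the second, and both paused ESC libraries lay above them on each.

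Between its own arms Mir296 was less clear. The 5p arm took 66.4% and 74.2% of both arms in paused ESC, 66.7% and 16.7% in control ESC, 45.5% and 49.3% in paused TSC, and 39.4% and 56.4% in control TSC. The control ESC values rest on 12 and 6 counts, and they spanned those of both TSC groups. Mir298 was counted almost wholly from its 5p arm (97.3% to 100.0% of its counts), with miR-298-3p at 4 and 0 counts in paused TSC, 0 and 2 in control TSC, and 0 in ESC.

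**Figure D4:**
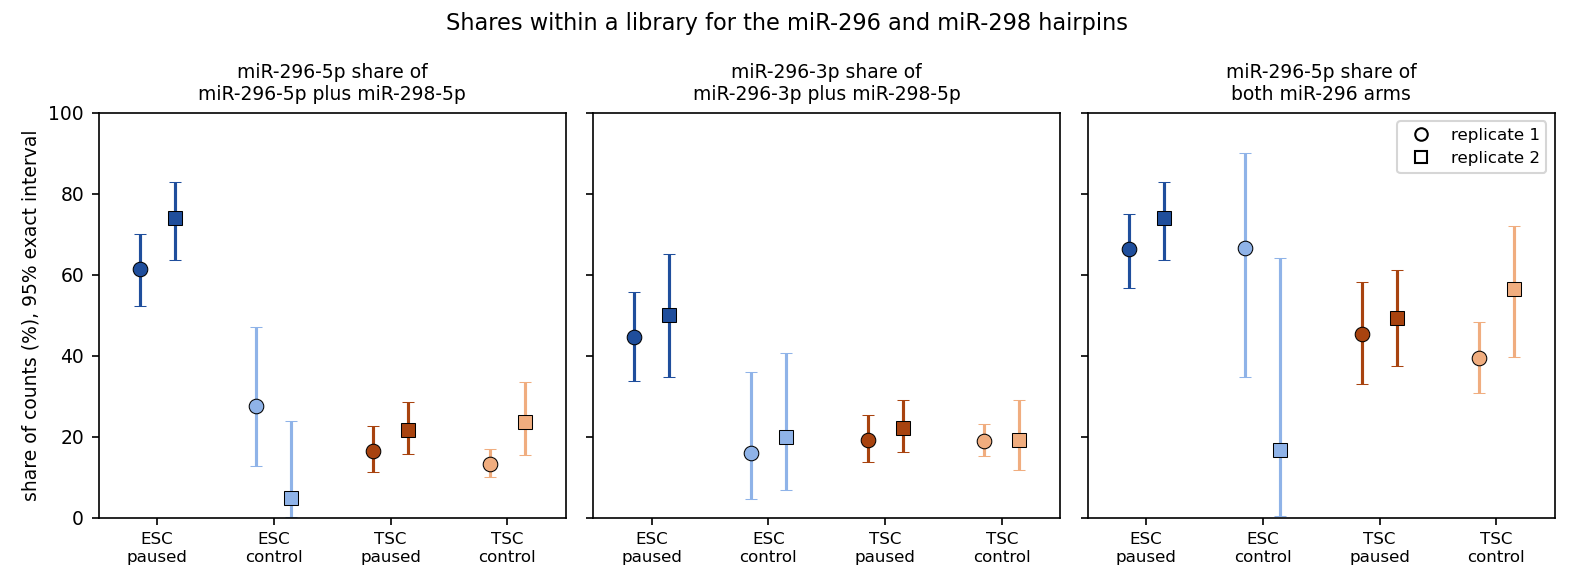
Points give the share (%) of counts within each library for miR-296-5p against miR-298-5p, miR-296-3p against miR-298-5p, and the 5p arm among both arms of Mir296, with 95% exact (Clopper-Pearson) intervals. Paused ESC, at 61.5% and 74.2% in the first panel and 44.7% and 50.0% in the second, lie above the other 6 libraries, while the third panel shows wide intervals in control ESC.

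Most of the imprinted miRNAs with counts in both cell types were lower in ESC than in TSC in both states. In paused cells, miR-298-5p was lower in ESC than in TSC by a log2 difference of -3.43 ± 0.39 (edgeR, adjusted p = 7.61e-17). miR-335-5p was lower by -2.66 ± 0.37 (adjusted p = 4.75e-12) and miR-296-3p by -1.64 ± 0.39 (adjusted p = 5.53e-05), while miR-296-5p stood at -0.27 ± 0.38 (adjusted p = 0.527). Of the 4 tested imprinted miRNAs with counts in ESC, 3 were called, all lower in ESC, in a comparison that called 76.7% of all tested miRNAs, 37.4% higher and 39.3% lower in ESC. In control cells all 4 were called lower in ESC, against 74.3% of all tested miRNAs called, 33.5% higher and 40.8% lower in ESC (edgeR). miR-483-3p is left out of both counts, since it could be called in 1 direction only. The log2 differences in control cells were -2.03 ± 0.54 for miR-296-3p (adjusted p = 0.000378), -1.93 ± 0.40 for miR-298-5p (adjusted p = 6.03e-06), -1.88 ± 0.57 for miR-296-5p (adjusted p = 0.00166) and -0.96 ± 0.40 for miR-335-5p (adjusted p = 0.0236).

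These differences are relative to a scale that is uncertain between the cell types. The median of all tested miRNAs moved by 0.978 in paused cells and by 1.06 in control cells when the TMM factors were computed without the cluster of miR-290 to miR-295, which held 48.6% to 65.3% of the counts. In control cells miR-335-5p then turned to 0.12 (adjusted p = 0.812), and only miR-483-3p of the 5 stayed called. The control call of miR-335-5p ended in 10 of 17 alternatives, among them leaving out control ESC replicate 1 (-0.97, adjusted p = 0.114), control ESC replicate 2 (-0.57, adjusted p = 0.279) or control TSC replicate 1 (-0.83, adjusted p = 0.0800), and that of miR-296-5p ended without control ESC replicate 2 (-0.93, adjusted p = 0.226). In paused cells miR-335-5p and miR-298-5p were called in each of the 17 alternatives, at log2 differences of -2.76 to -1.67 and of -3.84 to -2.41. The paused call of miR-296-3p ended with DESeq2 (-1.25, adjusted p = 0.0522), with the TMM factors outside the cluster (-0.64, adjusted p = 0.158) and with the filter at 10 CPM (-0.99, adjusted p = 0.0506).

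Over all comparisons, the median log2 difference of the imprinted miRNAs with a value stood beside that of all tested miRNAs as follows. It was 0.14 (4 miRNAs) beside -0.03 for the pause in ESC, and 0.39 (5 miRNAs) beside -0.39 for the pause in TSC. For the difference of pause effects it was -0.55 (4 miRNAs) beside 0.33. For ESC over TSC it was -2.66 beside 0.02 in paused cells and -1.93 beside -0.23 in control cells (5 miRNAs each). Both ESC over TSC medians include miR-483-3p, for which a cell type difference was built into the testing. The other imprinted clusters went opposite ways in ESC over TSC. Dlk1-Dio3 miRNAs were higher in ESC. Sfmbt2 miRNAs were mostly lower in ESC, the same direction as most of the imprinted miRNAs above. Of 32 tested Dlk1-Dio3 miRNAs, 32 were called higher in ESC in both states. Of 20 tested Sfmbt2 miRNAs, 19 in paused cells and 14 in control cells were called lower in ESC. The filter of about 369 CPM in 2 libraries bears on these counts. All Dlk1-Dio3 rows together summed to 43040 to 54370 CPM in ESC and 1872 to 6591 CPM in TSC. Sfmbt2 rows summed to 1775 and 1714 CPM in paused ESC, against 37480 and 38450 CPM in paused TSC. Rows that passed through the higher cell type alone had their direction built in, and their number was not counted. In the pause comparisons, Dlk1-Dio3 had 2 called higher and 1 lower in ESC and 8 lower in TSC, and Sfmbt2 had 18 lower in ESC and 3 lower in TSC.

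**Figure D5:**
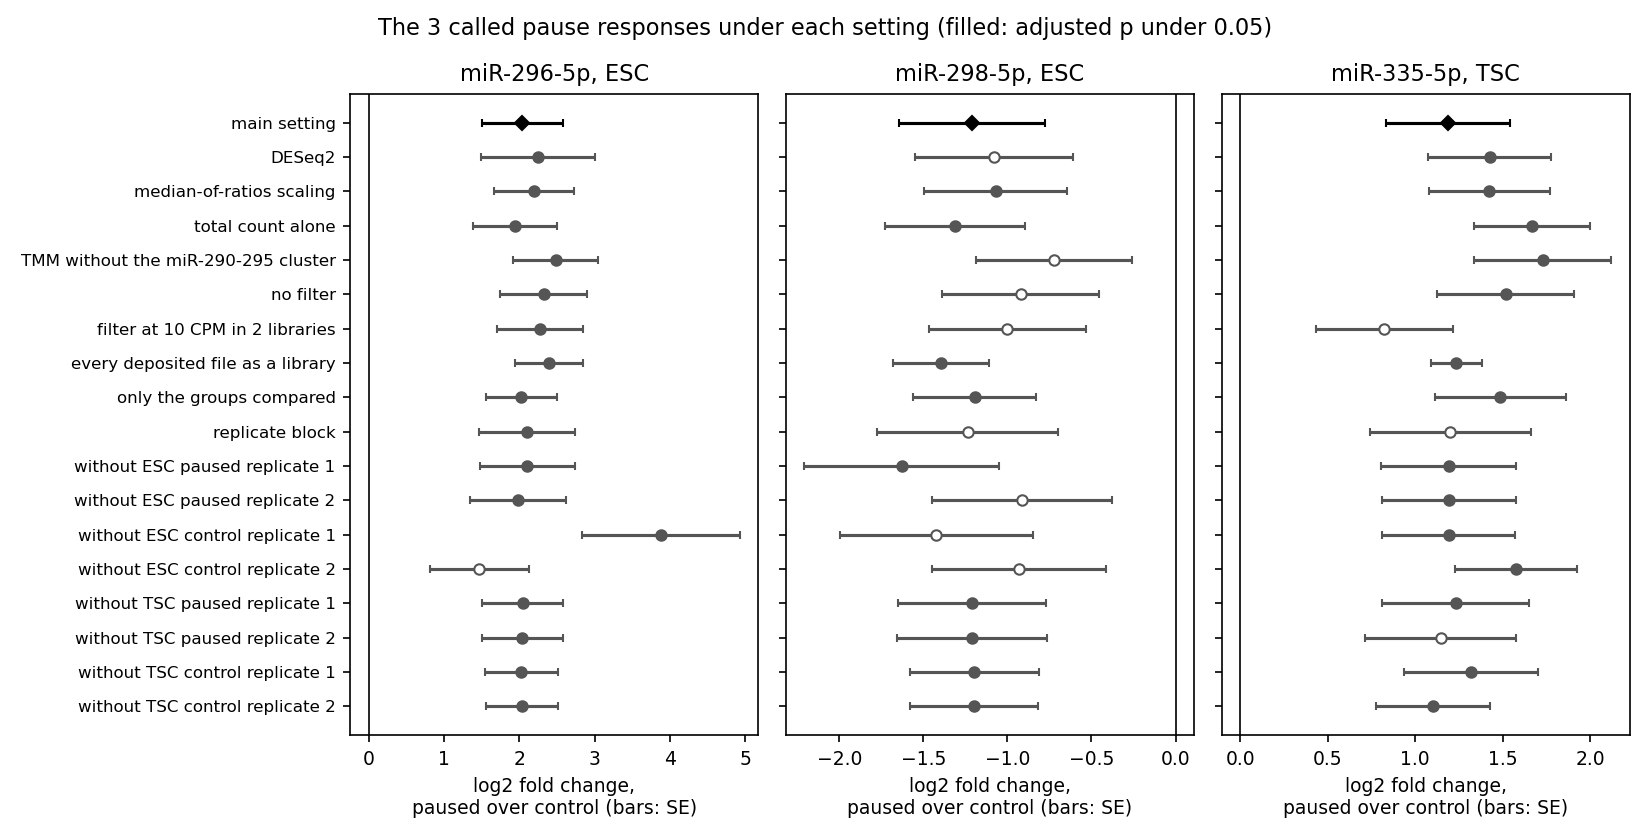
Each row gives the log2 fold change, paused over control, of the 3 called pause responses under an alternative setting, with bars of 1 SE and filled points at an adjusted p under 0.05. miR-296-5p in ESC is open in 1 row, miR-335-5p in TSC in 3, and miR-298-5p in ESC in 8, and no point crosses 0.

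The 5 tested miRNAs varied in how closely they followed each other across libraries. Likeness was measured as Pearson's r of log2 CPM over the 8 libraries, which share 2 cell types and their depth differences, against 201 other tested miRNAs. It is a description with no test. Among themselves, r was 0.27 between miR-296-5p and miR-298-5p, 0.61 between miR-296-5p and miR-296-3p, and 0.94 between miR-483-3p and miR-298-5p.
The miRNA most like miR-335-5p was miR-21a-5p (r = 0.975), at 9750 ± 3093 CPM in paused TSC and 4879 ± 2055 CPM in control TSC, followed by miR-125a-5p (0.951) and miR-32-5p (0.947). Those most like miR-483-3p were miR-351-5p (0.990), miR-22-3p (0.985) and miR-322-3p (0.982). miR-298-5p was most like miR-188-5p (0.979), miR-301a-3p (0.978) and miR-130a-3p (0.977), and miR-296-3p most like miR-30b-5p (0.971), miR-29a-3p (0.958) and miR-151-5p (0.950). The miRNA most like miR-296-5p was miR-200a-3p (r = 0.931), at 440 ± 22.5 CPM in paused ESC and 102 ± 52.3 CPM in control ESC (SD, n = 2 each), followed by miR-324-3p (0.917) and miR-3102-3p (0.877).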

How the data were processed

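Small RNA libraries were made from 10 ng of RNA with 12 PCR cycles and read as 75 bp single ends, per the labels' protocols. The deposited files hold raw counts per mature miRNA, made by the authors; the build, per the submitters' processing notes, is GRCm38. The aligner, the counter and the handling of reads with several matches were not given in the sources used here. No molecular identifiers are mentioned. Identical files of a group were counted as 1 library. Counts were tested with edgeR 4.0.16 (R 4.3.3; TMM, filterByExpr at 10 counts, about 369 CPM in 2 libraries; quasi-likelihood, 4 groups in 1 fit, two-sided, Benjamini-Hochberg adjustment over all tested miRNAs, threshold 0.05). Residual degrees of freedom were 4 and the spread was pooled over miRNAs (common dispersion 0.0456). In the main fit the prior degrees of freedom were infinite, so its p-values rest on the pooled spread alone. The edgeR alternatives estimated their prior degrees of freedom anew, and in some of them a miRNA's own spread entered. Shares have Clopper-Pearson intervals and exact permutation tests. Sequences are RefSeq GRCm38.p6. Every listed miRNA is named, with the 3 most like each tested one by Pearson's r. The members, marker lists and settings were chosen with earlier results of these data known. Alternatives were DESeq2 1.42.0, other scalings and filters, every file as a library, only the groups compared, a replicate block and each library left out. The steps were tested on simulated data.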

Additional observations from a re-analysis of the deposited data

Results flagged for a closer look

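The pause effect differed between ESC and TSC for miR-335-5p, where the ESC effect minus the TSC effect was -1.699 on the log2 scale (edgeR, adjusted p = 0.0113). Its mean level was 969 ± 97.5 CPM in paused and 1377 ± 18.1 CPM in control ESC, a difference of -0.51 that did not pass the test (edgeR, adjusted p = 0.366) and was -0.060 with TMM factors computed outside the cluster of miR-290 to miR-295. In TSC it was 6108 ± 259 CPM in paused and 2648 ± 284 CPM in control cells (SD, n = 2 each). Both paused libraries lay below both controls in ESC and above both in TSC. The value ran from -2.28 to -1.12 over 16 alternatives, with 11 calls.

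The pause effect also differed for miR-298-5p, at -1.492 on the log2 scale (edgeR, adjusted p = 0.0322). Its level was 479 ± 166 CPM in paused and 1136 ± 231 CPM in control ESC, and 5249 ± 1608 CPM in paused and 4302 ± 59.4 CPM in control TSC, where the libraries overlapped (SD, n = 2 each). The value ran from -2.04 to -0.93 over 16 alternatives, with 8 calls. It missed the threshold without paused ESC replicate 2 (-1.20, adjusted p = 0.171), control ESC replicate 1 (-1.70, adjusted p = 0.0610), control ESC replicate 2 (-1.58, adjusted p = 0.0553) or paused TSC replicate 1 (-1.15, adjusted p = 0.166).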

How the results depend on the processing

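Of 387 log2 differences recomputed for the tested imprinted miRNAs, 327 kept their direction and side of the threshold, 44 lost the call, 5 gained it and 11 changed sign; where no value shows it, the cause was not tested. The imprinted miRNAs called in the ESC pause comparison (2) came to 1 with DESeq2, 1 with TMM factors that leave out the cluster of miR-290 to miR-295, 1 with no filter, 1 with a filter at 10 CPM and 1 with the replicate block; in TSC (1) to 0 with the 10 CPM filter and 0 with the block; for the difference of pause effects (2) to 1 with DESeq2, 0 with no filter, 1 with the 10 CPM filter and 0 with the block; and for ESC over TSC in control cells (5, miR-483-3p included) to 2 with DESeq2, 1 with TMM outside the cluster and 3 with no filter. For ESC over TSC in paused cells the count was 4, with miR-483-3p, which could be called in 1 direction only. It came to 3 with DESeq2 and 3 with TMM outside the cluster. With 1 library left out, the ESC pause ran from 1.47 to 3.88 for miR-296-5p and -1.63 to -0.91 for miR-298-5p. The TSC pause of miR-335-5p ran from 1.1 to 1.58. ESC over TSC in paused cells ran from -2.76 to -2.55 for miR-335-5p, -3.84 to -3.08 for miR-298-5p and -1.87 to -1.45 for miR-296-3p. Counts of all called miRNAs for the ESC pause (57; 17 higher, 40 lower) were 37 with DESeq2 and 91 with every file as a library (37 to 71 with 1 library left out), and the split was 29 to 37 under RLE factors (relative log expression) and 38 to 31 under TMM outside the cluster. For the TSC pause (39; 4 higher, 35 lower) they were 12 with DESeq2, 24 under RLE factors (6 and 18), 22 under TMM outside the cluster (11 and 11), 16 with no filter (4 and 12), 22 in the groups compared alone and 12 with the block (12 to 57 with 1 library left out), and the split was 14 and 12 with the total count alone. For the difference of pause effects (54) they were 24 with DESeq2, 30 with no filter, 89 with every file and 31 with the block (34 to 69 with 1 library left out), and for ESC over TSC they ran from 146 to 161 in paused and 123 to 155 in control cells. Signs turned for differences that had not been called: miR-296-5p for ESC over TSC in paused cells (0.14 with DESeq2, 0.14 under RLE factors, 0.72 under TMM outside the cluster, 0.075 with no filter, 0.38 with the 10 CPM filter), miR-298-5p in the TSC pause (-0.074 with the 10 CPM filter, -0.064 without paused TSC replicate 1 in a range up to 0.65 with 1 library left out), miR-296-5p in the TSC pause (-0.17 without control TSC replicate 1, in a range up to 0.88), and the miR-296-3p difference of pause effects (-0.20 with the total count alone, -0.010 without control ESC replicate 1, in a range up to 0.58); among called values only miR-335-5p for ESC over TSC in control cells turned (0.12 under TMM outside the cluster). Outside the cluster the imprinted miRNAs held 0.876% of counts in paused ESC, 0.926% in control ESC, 3.94% in paused TSC and 1.64% in control TSC. The median of all tested miRNAs moved by 0.14 in ESC and 0.26 in TSC under RLE factors, and by -0.10 and 0.51 with the total count alone. Same-numbered replicates showed no shared deviation (correlation of same-numbered deviations -0.07 in ESC and -0.18 in TSC). Counting noise at this depth can hide pairing, so the check cannot exclude it. With the replicate block miR-298-5p in ESC gave -1.24 (adjusted p = 0.0898, edgeR) and miR-335-5p in TSC 1.20 (adjusted p = 0.103). A lone library left in a group was assumed to vary like the other groups. Depth limits control ESC most, where 3 counts are worth 139 and 195 CPM.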
